A study of Mus musculus with 9 samples.

Results

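De novo lipogenesis genes are followed here in the renal cortex of diabetic mice with and without rosiglitazone. The group holds 10 genes of 21950 in the mRNA tables, taken by their official symbols, namely Acly, Me1, Acaca, Acacb, Fasn, Elovl6, Scd1, Scd2, Dgat2 and Srebf1. All 10 had a mean level above the minimum used for testing, so none was lost to the filter on low values.

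Renal cortex RNA was sequenced from 9 male C57BL/KsJ mice of 15 weeks of age, with 1 library per mouse and 3 libraries per group. The control mice were db/m littermates, heterozygous for the db mutation of the leptin receptor, and received vehicle. The dbdb mice were db/db, homozygous for that mutation, and received vehicle, and the dbR mice were db/db mice given 20 mg/kg/day of rosiglitazone. Rosiglitazone is an agonist of the nuclear receptor PPARγ, and drug or vehicle was given by gavage for 8 weeks from 7 weeks of age. All groups therefore carried at least 1 db allele, and no lean mouse received the drug. The comparison of dbdb with control mice addressed how the diabetic cortex differs, and that of dbR with dbdb mice what the drug changed in diabetic mice. Homozygous Lepr mutation, obesity and diabetes come together in the db/db mice and cannot be told apart.

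De novo lipogenesis makes fatty acids from acetyl-CoA. ATP citrate lyase (Acly) releases acetyl-CoA from citrate in the cytosol, the acetyl-CoA carboxylases (Acaca and Acacb) turn it into malonyl-CoA, and fatty acid synthase (Fasn) builds palmitate with NADPH that malic enzyme (Me1) helps to supply. Elovl6 lengthens palmitate, stearoyl-CoA desaturases (Scd1 and Scd2) add a double bond, and Dgat2 joins acyl-CoA to diacylglycerol to make triglyceride. Srebf1 encodes SREBP-1, a transcription factor that drives such enzymes in liver. The tubules of the cortex live mainly on fatty acid oxidation, and lipid droplets in tubules and glomeruli are a known feature of the diabetic kidney.

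Levels are FPKM, fragments scaled to transcript length and to the mapped fragments of the library, summed over the transcripts of a gene. With control replicate 1 taken as 1, the relative depth of the libraries was 0.953 to 1.03 in control, 0.943 to 0.987 in dbdb and 0.917 to 1.14 in dbR mice. Mitochondrially encoded genes took 28.2% to 30%, 28.2% to 30.1% and 26.9% to 32.8% of the mRNA FPKM. The summed mRNA FPKM was 675346 to 730057 in control, 594838 to 647995 in dbdb and 595252 to 702217 in dbR libraries, so that every dbdb library lay below every control library. Scaling the libraries to the same sum moved the median log2 fold change of all genes from -0.00301 to 0.149 in dbdb vs. control, and changes given below are relative to the deposited scale. Lepr, the mutated gene, was at 1.05 to 1.23 FPKM in control, 0.304 to 0.652 in dbdb and 0.335 to 0.512 in dbR libraries, and the summed level does not separate its splice forms. The cortex label was borne out by the 8 proximal tubule markers, whose summed FPKM was 2818 to 3146, 2868 to 3554 and 3138 to 3249 in control, dbdb and dbR mice.

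Markers of other cell types were read by the same test, in which 26.4% of all genes passed for dbdb against control and 0.743% for dbR against dbdb. In dbdb vs. control, 6 of 8 tested markers of other nephron segments were higher (Calb1 by 2.12 on the log2 scale, then Aqp2, Slc4a1, Scnn1g, Slc12a3 and Slc26a4), with summed FPKM of 521 to 639 in control, 799 to 1094 in dbdb and 811 to 882 in dbR libraries, and Slc14a2 under the filter. In the same comparison 5 of 6 tested immune cell markers were lower (Ptprc with a log2 fold change of -1.39, Csf1r, Adgre1, Cd68 and Itgam), with sums of 17.98 to 21.3, 6.88 to 8.92 and 10.7 to 11.2 FPKM. Of the 5 hepatocyte markers 3 were higher in dbdb mice (Ttr, Apob and Alb), with sums of 108 to 122, 172 to 197 and 142 to 159 FPKM, and Apob was lower in dbR than in dbdb mice (log2 fold change -0.69). Apob held most of these sums, at a mean of 69.4, 148 and 92.4 FPKM. Serpina1a did not pass, at -0.55 in dbdb mice against control (adjusted p = 0.0535) and 0.60 with the drug (adjusted p = 0.147), nor did Alb with the drug, at 0.72 (adjusted p = 0.0731). Of the 9 podocyte and vascular markers 2 were higher (Nphs1 among them) and 3 lower (Pecam1 among them) in dbdb mice and 2 were higher in dbR than in dbdb mice (Pdgfrb and Kdr), with sums of 131 to 150, 132 to 136 and 141 to 166 FPKM. The Ttr call was lost without control replicate 1 or 2, dbdb replicate 1 or 2 or dbR replicate 3 (adjusted p 0.0555 to 0.128), the Itgam call without any library but dbdb replicate 1 or dbR replicate 2 (0.0546 to 0.134), the Apob call in dbR vs. dbdb without dbR replicate 2 or 3 (0.0625 and 0.0604), the Pdgfrb call without dbdb replicate 1 or 2 or dbR replicate 2 or 3 (0.0528 to 0.109), and the Kdr call without dbdb replicate 1 or any dbR library (0.0601 to 0.152). Proximal tubule markers gave 2 higher (Slc5a12 among them) and 1 lower (Slc22a6) in dbdb mice and no call in dbR vs. dbdb. In bulk tissue, fewer cells of a type and less RNA per cell cannot be told apart, and the part of these shifts in the results below was not tested.

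Adipocytes are a lipogenic cell type, so their markers were read as well. The summed FPKM of 11 adipocyte markers, 5 of which passed the filter, was 33.7 to 45.4 in control, 23.3 to 33.9 in dbdb and 44.2 to 47.4 in dbR libraries. Fabp4 held nearly all of it, at 30.6, 36.6 and 41.6 FPKM in control, 32.9, 21.9 and 22.8 in dbdb and 45.8, 45.8 and 43.2 in dbR libraries, and it was higher in dbR than in dbdb mice (log2 fold change 0.82, limma adjusted p = 0.0450), a call lost without control replicate 2, dbdb replicate 2 or 3 or any dbR library (adjusted p 0.0642 to 0.189). Without Fabp4 the sums were 0.708 to 3.78, 0.94 to 1.33 and 0.56 to 1.54 FPKM. Of the other markers, Adipoq was at 0 in every dbdb library and at most 0.515 FPKM in any library, in dbR replicate 1. Plin1 was at most 0.105 FPKM and Lep at most 0.0343. Cfd was at 1.64, 0.106 and 1.88 FPKM in control, at most 0.0518 in dbdb and 0 in dbR libraries. In control libraries Cidec was at 0.243, 0.0666 and 0.491 FPKM and Retn at 0.0554, 0.0573 and 0.373. Retn was at 0 in every db/db library, and Cidec reached 0.158 FPKM there. In control, dbdb and dbR mice 1, 4 and 4 of the 11 markers were at 0 in all 3 libraries. In dbdb vs. control, Plin4 was higher (0.85) and 2 markers were lower, Cfd (-2.96) and Fabp4 (-0.50, adjusted p = 0.0355). The Plin4 call was lost without control replicate 2 or dbdb replicate 2 or 3 (adjusted p 0.0529 to 0.0753) and the Cfd call without control replicate 1 or 3 (0.0508 and 0.0518).

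Promoter windows of 300 bases, with 250 before and 50 from each RefSeq start site on GRCm38.p6, were matched for 7 of the 10 members and gave 10 windows. They were searched on both strands for the sterol response element, here TCACNCCAC. Further searches took the E-box, here CACGTG, the CCAAT box by its own letters, and the nuclear receptor repeats DR1 and DR4, which hold the half-site AGGTCA in tandem with 1 or 4 bases between. Of 32851 promoter windows in the RefSeq table, 1.24% held the first, 7.15% the second, 37.4% the third, 0.0396% DR1 and 0.0152% DR4. Among the members' windows the CCAAT box alone was matched, in 6 of 10 windows of 5 genes (Acacb, Acly, Fasn, Me1 and Srebf1). A match or its absence describes these letters in these windows and nothing about a factor. The 4 windows below belong to the gene called in dbR vs. dbdb (Srebf1, with those 2 of its 3 windows that hold the starts of its most abundant transcripts), to the gene with the largest fall (Me1) and to the synthase of the pathway (Fasn). All are on the minus strand and run 5′ to 3′, and capitals mark a CCAAT box on either strand. The Me1 match was in its other window, at the start of a transcript with 0.0509% of the gene's FPKM, and the printed Me1 window holds none. The Srebf1 window not printed holds a box at -166 to -162. In Fasn the boxes lay at -90 to -86, -62 to -58 and -59 to -55 from the start site, and the last pair overlap. The Fasn window holds the start of ENSMUST00000055655, with 31.8% of the gene's FPKM. The start of its most abundant transcript, ENSMUST00000206589 with 66.4%, lies outside this window.
Srebf1, chr11:60220578-60220877: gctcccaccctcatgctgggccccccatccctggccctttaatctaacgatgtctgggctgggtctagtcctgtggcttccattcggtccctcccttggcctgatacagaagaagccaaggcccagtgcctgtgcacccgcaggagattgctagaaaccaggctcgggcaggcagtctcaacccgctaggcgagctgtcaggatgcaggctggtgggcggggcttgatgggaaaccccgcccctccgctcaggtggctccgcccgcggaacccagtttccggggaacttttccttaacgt
Srebf1, chr11:60210422-60210721: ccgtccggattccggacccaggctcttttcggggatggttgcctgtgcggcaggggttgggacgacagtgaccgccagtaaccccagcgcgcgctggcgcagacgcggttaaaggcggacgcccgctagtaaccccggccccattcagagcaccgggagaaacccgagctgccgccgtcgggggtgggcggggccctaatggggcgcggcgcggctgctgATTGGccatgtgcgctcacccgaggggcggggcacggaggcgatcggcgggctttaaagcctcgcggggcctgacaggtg
Me1, chr9:86695865-86696164: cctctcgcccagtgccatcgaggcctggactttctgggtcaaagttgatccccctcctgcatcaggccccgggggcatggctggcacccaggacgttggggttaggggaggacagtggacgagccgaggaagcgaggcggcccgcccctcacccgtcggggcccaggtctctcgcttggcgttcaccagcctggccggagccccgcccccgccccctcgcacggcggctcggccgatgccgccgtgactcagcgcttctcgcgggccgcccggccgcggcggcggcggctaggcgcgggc
Fasn, chr11:120824498-120824797: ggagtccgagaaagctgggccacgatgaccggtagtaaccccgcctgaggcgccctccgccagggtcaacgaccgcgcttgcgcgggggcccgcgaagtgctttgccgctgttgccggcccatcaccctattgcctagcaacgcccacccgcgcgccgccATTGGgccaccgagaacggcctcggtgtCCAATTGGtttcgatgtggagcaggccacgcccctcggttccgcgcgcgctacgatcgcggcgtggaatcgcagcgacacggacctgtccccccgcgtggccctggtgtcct

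In dbdb vs. control mice, Me1 fell to 0.451 of the control level, Scd1 to 0.514 and Fasn to 0.727, while Acacb rose 1.95-fold, Scd2 1.79-fold and Dgat2 1.19-fold. These 6 of the 10 members passed the test (adjusted p under 0.05, limma with Benjamini-Hochberg adjustment over 14537 genes), 3 in each direction, where 26.4% of all genes tested passed, 13.1% higher and 13.4% lower. With Elovl6, 7 members had an unadjusted p under 0.05, against 38.8% of all genes. Acaca, Acly, Elovl6 and Srebf1 did not pass. The same 6 had no overlap between the dbdb and control libraries, 3 in each direction, against 42.4% of all genes (21.2% higher and 21.2% lower). The median log2 fold change of the members was 0.12, and that of all genes tested -0.00301.

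In dbR vs. dbdb mice, Srebf1 was the 1 member that passed the test, 1.54-fold higher with the drug, a call lost in 13 of 22 alternatives (adjusted p up to 0.162), where 0.743% of all genes passed (0.564% higher and 0.179% lower). A further 4 had an unadjusted p under 0.05, with Scd1 and Scd2 to the higher side and Acacb and Dgat2 to the lower, and 17.5% of all genes had such a p. The dbR and dbdb libraries of 6 members did not overlap (Scd1, Scd2, Elovl6 and Srebf1 above, Acacb and Dgat2 below), against 22.7% of all genes (10.7% above and 11.9% below). Median log2 fold changes were 0.13 for the members and -0.00219 for all genes. The all-gene count of 108 fell to 36 and 31 without dbdb replicate 1 or 2, and to 70, 2 and 10 without dbR replicate 1, 2 or 3.

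In dbR vs. control mice, Scd2 was 2.44-fold higher, Srebf1 1.72-fold, Acacb 1.497-fold and Elovl6 1.47-fold, while Me1 stood at 0.468 and Fasn at 0.757 of the control level. These 6 passed the test, 4 higher and 2 lower, where 24.1% of all genes passed (12.3% higher and 11.8% lower), and the same 6 did not overlap with control, against 41.9% of all genes (20.8% higher and 21.1% lower). No other member had an unadjusted p under 0.05, where 36.8% of all genes had one. Median log2 fold changes were 0.04 and -0.0014. Each group enters 2 of the comparisons, so the values of a gene in them are not independent of each other.

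**Figure D1:**
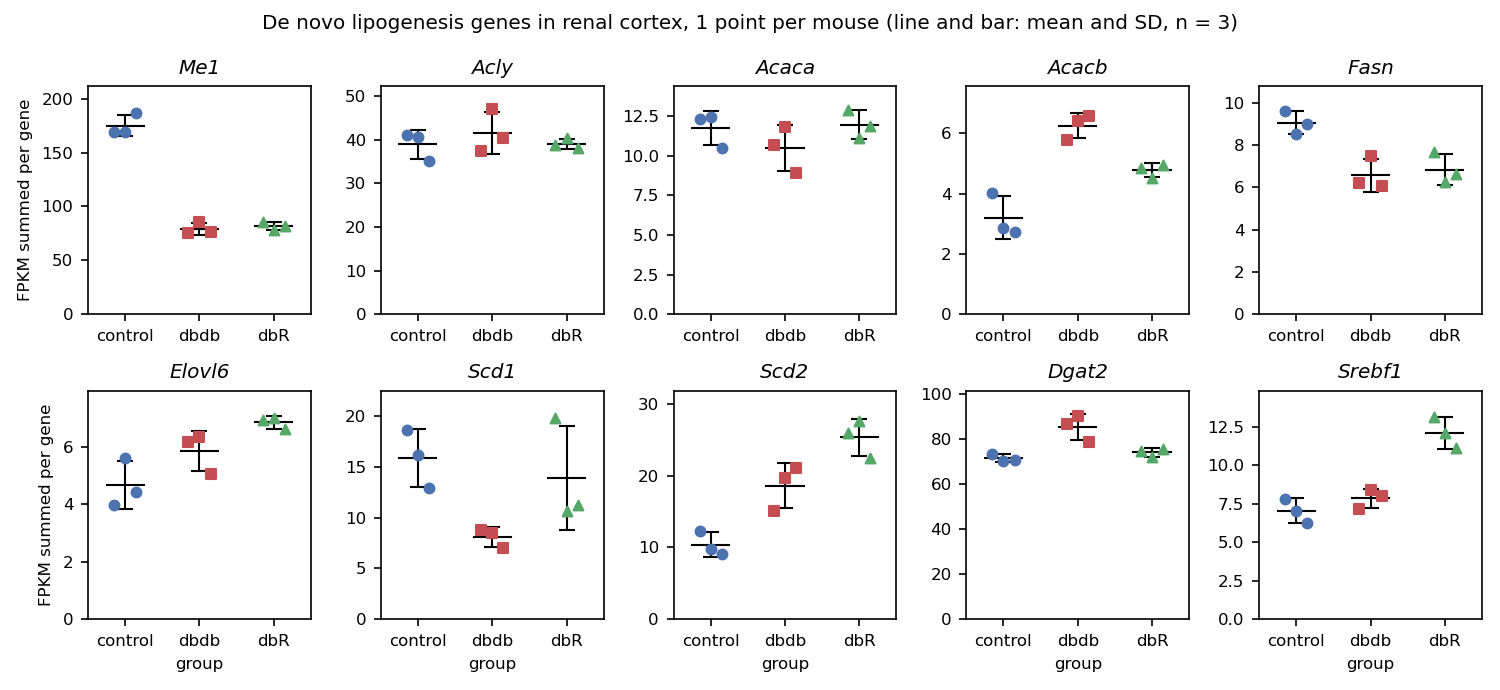
Summed FPKM (vertical axes, each from 0) of the 10 genes in control, dbdb and dbR mice, with 1 point per mouse, a line at the mean and bars of 1 SD (n = 3). Me1 sits between 169 and 187 FPKM in control mice and between 74.9 and 85.6 in both db/db groups, and Srebf1 is at 11.1 FPKM or more in the dbR mice and at 8.37 or less in all others.

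**Figure D2:**
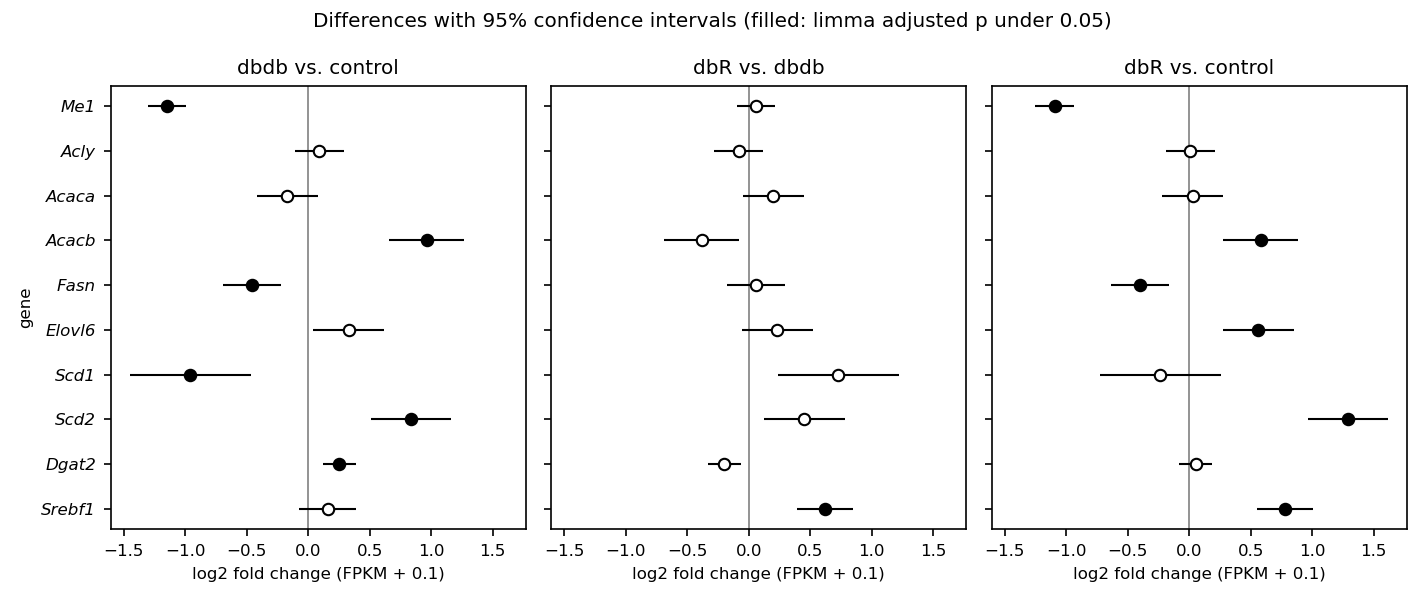
Log2 fold changes on the FPKM + 0.1 scale (horizontal axes) with 95% confidence intervals from limma for the 3 comparisons, filled where the adjusted p was under 0.05. Filled points lie on both sides of 0 in both comparisons with control, and Srebf1 is the filled point in dbR vs. dbdb.

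Among the genes that supply substrate, Me1 (ENSMUSG00000032418, chr9:86581371-86695953, minus strand), the cytosolic malic enzyme that makes NADPH, had the largest fall of the members. It stood at 169, 169 and 187 FPKM in control, 74.9, 85.3 and 76.3 in dbdb and 85.6, 78.1 and 82.0 in dbR libraries. Every control library was above every db/db library, treated or not, and the 2 db/db groups overlapped. The log2 fold change was -1.15 in dbdb vs. control (SE 0.07, adjusted p = 1.03e-05) and -1.09 in dbR vs. control (adjusted p = 1.35e-05). In dbR vs. dbdb it was 0.06, with a 95% interval of -0.10 to 0.21 (adjusted p = 0.729). The fall was seen in 1 transcript, which held 99.9% of the gene's FPKM.

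Me1 was also the most abundant member in control mice, and its fall changed the weight of the group. It held 48.0%, 49.4% and 53.7% of the summed member FPKM in control libraries, 28.9% to 29.5% in dbdb and 29.0% to 30.3% in dbR libraries. The sum over all 10 members was 342 to 353 FPKM in control, 258 to 291 in dbdb and 269.7 to 291 in dbR mice. Without Me1 the sums were 161 to 183, 182 to 206 and 189 to 205 FPKM. The remaining 9 members together thus reached at least the upper end of the control range in each db/db library but for dbdb replicate 3, which lay just under it. Dgat2 weighed most in these sums, at a mean of 71.6, 85.4 and 74.2 FPKM in control, dbdb and dbR mice. Acly came next, at 39.0, 41.6 and 39.1 FPKM. The sums therefore say little of the less abundant members, of which Fasn and Scd1 were lower in dbdb than in control mice. In dbdb mice Dgat2 took the first place in mean level, ahead of Me1, and the span from the highest to the lowest member shrank from 54.8-fold in control to 14.6-fold in dbdb and 17.2-fold in dbR mice.

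Acly (ENSMUSG00000020917, chr11:100476353-100528000, minus strand), which cleaves citrate, gave no call in any comparison. Its levels were 41.1, 40.7 and 35.1 FPKM in control, 37.4, 47.0 and 40.4 in dbdb and 38.9, 40.3 and 38.1 in dbR libraries, and all 3 groups overlapped. The 95% interval of the log2 fold change was -0.11 to 0.29 for dbdb against control and -0.28 to 0.12 for dbR against dbdb. The direction of these differences turned under some settings and none is read from them.

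Of the 2 acetyl-CoA carboxylases, Acacb passed the test in both comparisons with control and Acaca in none, and the difference between the genes was not tested. Acacb (ENSMUSG00000042010, chr5:114146535-114250761, plus strand), the form at the mitochondrial outer membrane whose malonyl-CoA restrains fatty acid import by Cpt1, was at 4.02, 2.85 and 2.72 FPKM in control, 5.77, 6.40 and 6.56 in dbdb and 4.86, 4.50 and 4.93 in dbR libraries. The groups were ordered control, dbR, dbdb with no overlap between any pair. It rose by 0.96 on the log2 scale in dbdb vs. control (SE 0.14, adjusted p = 0.000840) and was 0.58 above control in dbR mice (adjusted p = 0.0125), or 0.998 in its most abundant transcript (adjusted p = 0.0372). The difference between dbR and dbdb mice was -0.38 (95% interval -0.69 to -0.08) and missed the threshold (adjusted p = 0.188).

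Acaca (ENSMUSG00000020532, chr11:84129672-84401651, plus strand), the cytosolic carboxylase, was at 12.3, 12.5 and 10.5 FPKM in control, 10.7, 11.8 and 8.92 in dbdb and 12.9, 11.1 and 11.9 in dbR libraries. All groups overlapped, and no comparison passed the test. The log2 fold change was -0.17 in dbdb vs. control (95% interval -0.42 to 0.08) and 0.20 in dbR vs. dbdb (-0.05 to 0.45). Its most abundant transcript, ENSMUST00000020843 with 44.7% of the gene's FPKM, was at 5.37, 5.31 and 5.90 FPKM in control, 3.96, 4.80 and 4.18 in dbdb and 5.94, 5.33 and 5.03 in dbR libraries. With that transcript in place of the sum, dbdb vs. control was -0.35 and passed the test (adjusted p = 0.0323).

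The ratio of Acacb to Acaca, chosen after the values were seen and given without a test, was 0.327, 0.228 and 0.259 in control, 0.539, 0.543 and 0.736 in dbdb and 0.377, 0.405 and 0.414 in dbR libraries. By these sums Acaca was the more abundant carboxylase within each library. The ratio was highest in dbdb, lowest in control and between them in dbR mice, with no overlap. FPKM is per length, but the sums of both genes include short listed transcripts. ENSMUST00000137500, of 431 bases, held 29.0% of the Acaca FPKM, and ENSMUST00000146841, of 676 bases, held 32.8% of the Acacb FPKM. Their effect on the ratio was not tested.

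Fasn (ENSMUSG00000025153, chr11:120805846-120824547, minus strand), the synthase, was at 9.63, 8.54 and 9.01 FPKM in control, 6.19, 7.48 and 6.07 in dbdb and 7.67, 6.25 and 6.62 in dbR libraries. Both db/db groups lay below control without overlap and overlapped with each other. It fell by 0.46 on the log2 scale in dbdb vs. control (SE 0.11, adjusted p = 0.0106), and in dbR vs. dbdb the change was 0.06 (95% interval -0.18 to 0.29). In dbR vs. control it was -0.40 (adjusted p = 0.0210), and this call was lost without control replicate 1 or 3 (adjusted p = 0.0688 and 0.0538) or dbR replicate 2 or 3 (0.0739 and 0.0636), and with no filter on low values (0.0594). With libraries scaled to the same sum, Fasn no longer passed against control in dbdb mice (-0.30) or in dbR mice (-0.31). The adjusted p was 0.0850 and 0.0986 with mitochondrially encoded genes left out, and 0.135 and 0.155 with them kept.

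Elovl6 (ENSMUSG00000041220, chr3:129532355-129638495, plus strand), the elongase that turns palmitate into stearate, was at 3.96, 5.59 and 4.43 FPKM in control, 6.16, 6.34 and 5.06 in dbdb and 6.93, 7.02 and 6.61 in dbR libraries. The dbR libraries stood above all 6 others, and control and dbdb overlapped through control replicate 2 and dbdb replicate 3. It was higher in dbR than in control mice by 0.56 (SE 0.13, adjusted p = 0.0118). In dbdb vs. control the log2 fold change was 0.33 (adjusted p = 0.0874), and the dbR mice stood 0.23 above the dbdb mice (95% interval -0.06 to 0.52, adjusted p = 0.394). Without control replicate 2 or dbdb replicate 3, dbdb vs. control passed the test at 0.47 (adjusted p = 0.0211) and 0.43 (adjusted p = 0.0455), and it also passed with libraries scaled to the same sum, with mitochondrially encoded genes left out or kept (0.49 in both, adjusted p = 0.0255 and 0.0290).

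The 2 desaturases, neighbours on chromosome 19 with 87590 bases between them, changed in opposite directions in dbdb mice. Scd1 (ENSMUSG00000037071, chr19:44394455-44407879, minus strand), the main desaturase of liver and fat, was at 18.6, 16.1 and 12.9 FPKM in control, 8.78, 8.45 and 6.97 in dbdb and 19.8, 10.7 and 11.2 in dbR libraries. The dbdb libraries lay below both other groups without overlap, and dbR replicate 1 stood far above the other dbR libraries, on a group CV of 36.8%. In dbR replicates 1, 2 and 3 Adipoq was at 0.515, 0 and 0.0723 FPKM and Plin1 at 0.0732, 0.0206 and 0. Cidec was highest in dbR replicate 3 (0.158 FPKM), and Cfd was at 0 in all dbR libraries. The part of adipocytes in the Scd1 levels was not tested. Scd1 fell by 0.96 on the log2 scale in dbdb vs. control (SE 0.22, adjusted p = 0.0105, or 0.0593 with no filter on low values), and was 0.73 higher in dbR than in dbdb mice without passing (SE 0.22, 95% interval 0.23 to 1.22, adjusted p = 0.141). Without dbR replicate 1 that difference was 0.44 (adjusted p = 0.183). In dbR vs. control it was -0.23 (adjusted p = 0.482), and without dbR replicate 1 it was -0.52 and passed (adjusted p = 0.0481).

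Scd2 (ENSMUSG00000025203, chr19:44293674-44306864, plus strand), the desaturase best known from brain, was at 12.3, 9.74 and 9.04 FPKM in control, 15.0, 19.7 and 21.1 in dbdb and 26.0, 27.6 and 22.5 in dbR libraries. The groups rose in that order with no overlap between any pair. It was higher by 0.84 on the log2 scale in dbdb vs. control (SE 0.15, adjusted p = 0.00281) and by 1.29 in dbR vs. control (adjusted p = 0.000291), the largest rise among the members in that comparison. In dbR vs. dbdb it was 0.45 and did not pass (SE 0.15, 95% interval 0.13 to 0.78, adjusted p = 0.162). Each desaturase gene was listed with 1 transcript, and how reads common to these paralogues were assigned was not tested.

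The ratio of Scd2 to Scd1, also chosen after the values were seen and given without a test, was 0.662, 0.604 and 0.700 in control, 1.71, 2.34 and 3.03 in dbdb and 1.31, 2.59 and 2.00 in dbR libraries. Scd1 was thus the more abundant desaturase in every control library and Scd2 in every db/db library. The dbdb and dbR ratios overlapped.

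**Figure D3:**
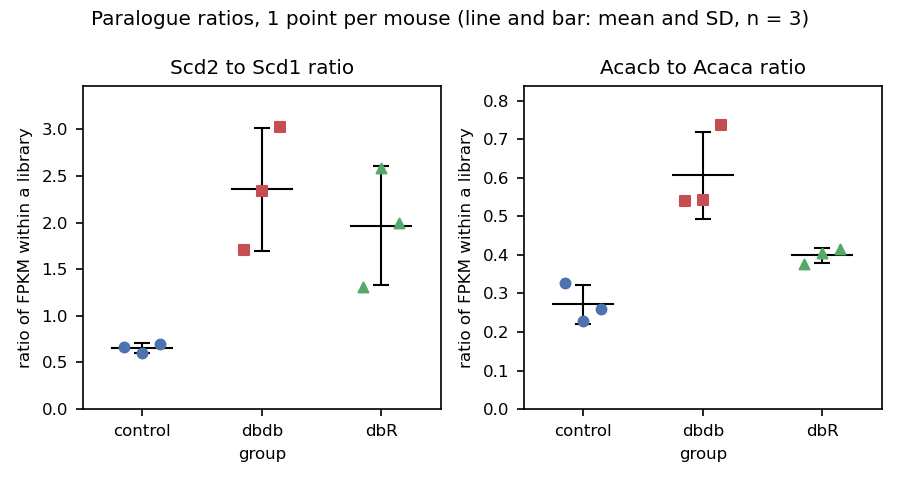
Ratio of FPKM within a library for Scd2 to Scd1 and for Acacb to Acaca (vertical axes, no unit), with 1 point per mouse, a line at the mean and bars of 1 SD (n = 3). The desaturase ratio is below 1 in control and above 1 in dbdb and dbR mice, and the carboxylase ratio averages 0.271, 0.606 and 0.399 in control, dbdb and dbR mice.

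Dgat2 (ENSMUSG00000030747, chr7:99153658-99182719, minus strand), the last enzyme of triglyceride synthesis, was at 73.5, 70.4 and 70.9 FPKM in control, 86.8, 90.5 and 79.0 in dbdb and 74.8, 72.03 and 75.8 in dbR libraries. The dbdb libraries lay above all others, and control and dbR overlapped. It rose by 0.25 in dbdb vs. control (SE 0.06, adjusted p = 0.0129), or by 0.41 with libraries scaled to the same sum, a call that was lost without dbdb replicate 2 (0.21, adjusted p = 0.0507). In dbR vs. dbdb it was -0.20 and did not pass (95% interval -0.33 to -0.07, adjusted p = 0.137), and in dbR vs. control it was 0.05 (adjusted p = 0.581).

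Srebf1 (ENSMUSG00000020538, chr11:60199089-60222581, minus strand), the regulator of the group, was at 7.84, 7.03 and 6.21 FPKM in control, 7.12, 8.37 and 8.02 in dbdb and 13.1, 12.1 and 11.1 in dbR libraries. Every dbR library stood above every other library, and control and dbdb overlapped. It was higher by 0.62 on the log2 scale in dbR vs. dbdb (SE 0.10, 95% interval 0.39 to 0.85, adjusted p = 0.0331) and by 0.78 in dbR vs. control (adjusted p = 0.000671), while dbdb vs. control was 0.16 (95% interval -0.07 to 0.39). The call in dbR vs. dbdb was lost without control replicate 2 (adjusted p = 0.0524), dbdb replicate 1 or 2 (0.0681 and 0.0723) or dbR replicate 1, 2 or 3 (0.0721, 0.153 and 0.0647). It was also lost with no filter (0.109), with libraries scaled to the same sum, with mitochondrially encoded genes left out or kept (0.0693 and 0.110), with 6 libraries in the fit (0.0592), with no variance trend (0.0737), with a replicate block (0.0640) and with the most abundant transcript, and the log2 fold change stayed between 0.45 and 0.68 in all 22 alternatives. Fabp4, Kdr and Pdgfrb were higher in the same comparison, and their part in this difference was not tested.

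The 3 listed transcripts of Srebf1 differ in where they begin, and the gene is known to give SREBP-1a and SREBP-1c from separate starts. ENSMUST00000020846, which begins at chr11:60220604 in the first printed window and held 65.8% of the FPKM, was at 5.05, 4.71 and 4.58 FPKM in control, 5.15, 6.06 and 5.06 in dbdb and 8.95, 7.55 and 6.07 in dbR libraries. ENSMUST00000144942, which begins at chr11:60210465 in the second printed window and held 27.8%, was at 2.33, 1.86 and 1.37 in control, 1.63, 2.14 and 2.44 in dbdb and 3.52, 3.51 and 3.66 in dbR libraries. For both, every dbR library lay above every dbdb library, by a narrow margin for the first in dbR replicate 3. The remaining transcript, with 6.47%, was at 0.264 to 0.456, 0.168 to 0.523 and 0.666 to 1.35 FPKM. With ENSMUST00000020846 in place of the sum, the log2 fold change in dbR vs. dbdb was 0.45 (adjusted p = 0.162), and the division of reads between transcripts rests on Cufflinks.

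**Figure D4:**
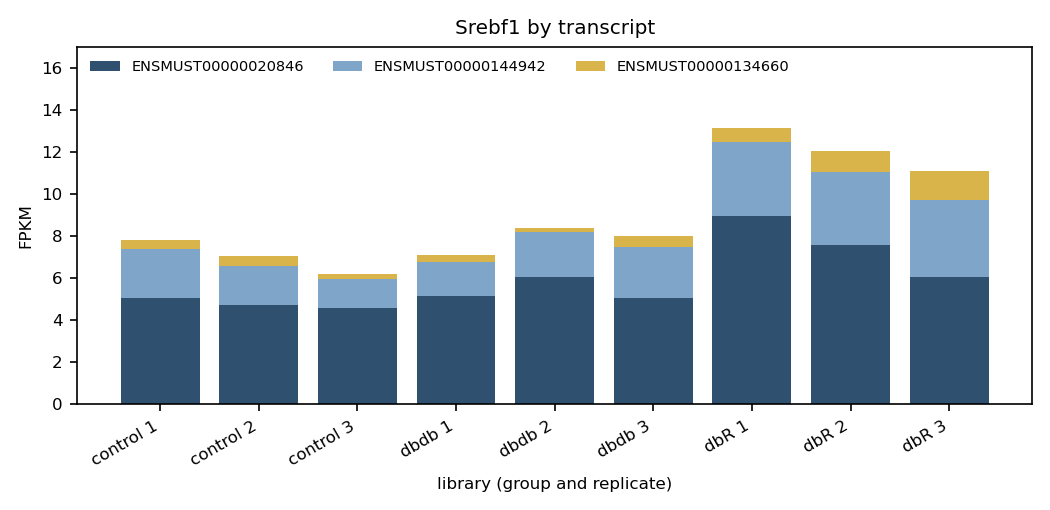
FPKM of the 3 listed Srebf1 transcripts (vertical axis) in each of the 9 libraries, stacked so that the height of a bar is the gene's sum. Bars reach 6.21 to 8.37 FPKM in control and dbdb and 11.1 to 13.1 FPKM in dbR libraries, with larger segments of each transcript in the dbR libraries.

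Transcripts of the other members were mixed in number. The 10 members had 30 listed transcripts, 3 members (Scd1, Scd2 and Dgat2) had 1 each, and in 4 members 1 transcript held over 90% of the FPKM. In Acacb the most abundant, ENSMUST00000031583 with 39.0%, was at 1.19, 0.492 and 1.32 FPKM in control, 2.37, 2.82 and 2.56 in dbdb and 2.19, 1.96 and 1.73 in dbR libraries, in the order of the gene sum and without overlap. In Fasn, ENSMUST00000206589 and ENSMUST00000055655 held 66.4% and 31.8%, and each was lower in every dbdb than in every control library.

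Single libraries had a tendency across members. Control replicate 1 was the highest of its group for 7 of the 10 members and control replicate 3 the lowest for 6. Among dbdb mice replicate 2 was the highest for 7 and the lowest for 0, and among dbR mice replicate 1 was the highest for 5 and replicate 2 the lowest for 6.

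Other genes of the pathway were read from 5 lists of 74 genes, of which 69 were tested. In dbdb vs. control 17 were higher and 11 lower, which is 40.6% of those tested beside 26.4% of all genes. For dbR against dbdb, 1 was higher and 1 lower (2.9% beside 0.743%), and in dbR vs. control 14 were higher and 12 lower (37.7% beside 24.1%). The counts of each list are small and are to be read against the same all-gene shares. Elovl3, Elovl4, Scd3 and Scd4 were under the filter, and Agpat6 was not found by that symbol.

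Of the 10 genes of acetyl-CoA and citrate supply, 2 were higher and 1 lower in dbdb mice (median log2 fold change 0.02). Acss1, the mitochondrial acetyl-CoA synthetase, rose from 67.7 ± 4.41 to 125 ± 9.62 FPKM (mean ± SD, n = 3) and stood at 124 ± 6.25 in dbR mice. Acss2, its cytosolic counterpart and a known SREBP target, fell from 105 ± 12.8 to 73.7 ± 6.54 FPKM and stood at 69.5 ± 4.26 in dbR mice. The log2 fold changes in dbdb vs. control were 0.89 (adjusted p = 5.13e-05) and -0.50 (adjusted p = 0.00445). Of the 9 genes of NADPH supply, 4 were higher and 1 lower (median -0.10). The mitochondrial malic enzymes Me2 and Me3 rose by 0.76 (adjusted p = 0.00276) and 0.71 (adjusted p = 0.00360), against the fall of the cytosolic Me1. Their levels stayed low beside it, at 3.18 ± 0.568 and 14.2 ± 2.07 FPKM in dbdb mice.

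Of the 11 tested genes of fatty acid elongation and desaturation, 1 was higher and 6 lower in dbdb mice (median -0.27), and 0 passed in dbR vs. dbdb (median 0.04). Fads2, the desaturase that starts the synthesis of long polyunsaturated fatty acids, fell by 0.55 (adjusted p = 0.000738), at 83.3, 83.6 and 75.5 FPKM in control, 56.0, 60.4 and 49.3 in dbdb and 68.5, 67.6 and 68.7 in dbR libraries. The 3 groups did not overlap, with dbR between the others.

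Of the 22 lipogenic regulators, 6 were higher and 2 lower in dbdb mice (median -0.03). Thrsp, the lipogenic protein Spot14, rose by 1.31 (adjusted p = 0.000377), from 1.60 ± 0.356 to 4.05 ± 0.320 FPKM. Its paralogue Mid1ip1, which activates acetyl-CoA carboxylase, rose by 0.52 (adjusted p = 0.00570), though by 0.20 without passing in its most abundant transcript (adjusted p = 0.286), and Mlxip, the glucose-responsive factor MondoA, by 0.54 (adjusted p = 0.00379). In dbR vs. dbdb, Insig1, which holds the SREBP-SCAP complex in the endoplasmic reticulum and is itself an SREBP target, was higher by 0.65 (adjusted p = 0.0498). It was at 19.1, 18.4 and 21.4 FPKM in control, 19.9, 15.5 and 14.3 in dbdb and 26.1, 28.8 and 23.1 in dbR libraries, so that all dbR libraries lay above the rest. Leaving out dbdb replicate 1 kept this call, and leaving out any of the 8 other libraries lost it (adjusted p 0.0561 to 0.200). Pparg, the receptor of the drug, named after its values were seen, was at 0.812, 2.26 and 0.563 FPKM in control, 0.447, 0.259 and 0.471 in dbdb and 0.583, 0.673 and 1.20 in dbR libraries and gave no call in these comparisons.

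Of the 17 tested genes of triglyceride assembly, 4 were higher and 1 lower in dbdb mice (median -0.02). Mogat1, a monoacylglycerol acyltransferase, fell by 1.01 (adjusted p = 0.000316), from 97.3 ± 14.5 to 48.0 ± 0.928 FPKM, and stood at 47.2 ± 7.51 in dbR mice. Its relative Mogat2 rose by 0.58 (adjusted p = 0.0128), and Agpat9, the glycerol-3-phosphate acyltransferase Gpat3, by 0.93 (adjusted p = 0.000109). Lpin1, the phosphatidate phosphatase that makes diacylglycerol for Dgat2, rose by 0.73 in dbdb vs. control (adjusted p = 0.00144) and fell by 0.62 in dbR vs. dbdb (adjusted p = 0.0445). It was at 11.6, 9.41 and 11.8 FPKM in control, 18.6, 20.1 and 15.9 in dbdb and 12.8, 10.7 and 11.8 in dbR libraries, with the dbdb libraries above all others. The call in dbR vs. dbdb was lost without control replicate 1 or 3 (adjusted p = 0.0621 and 0.0538), dbdb replicate 1 or 2 (0.0867 and 0.125) or dbR replicate 1, 2 or 3 (0.0673, 0.189 and 0.0957).

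**Figure D5:**
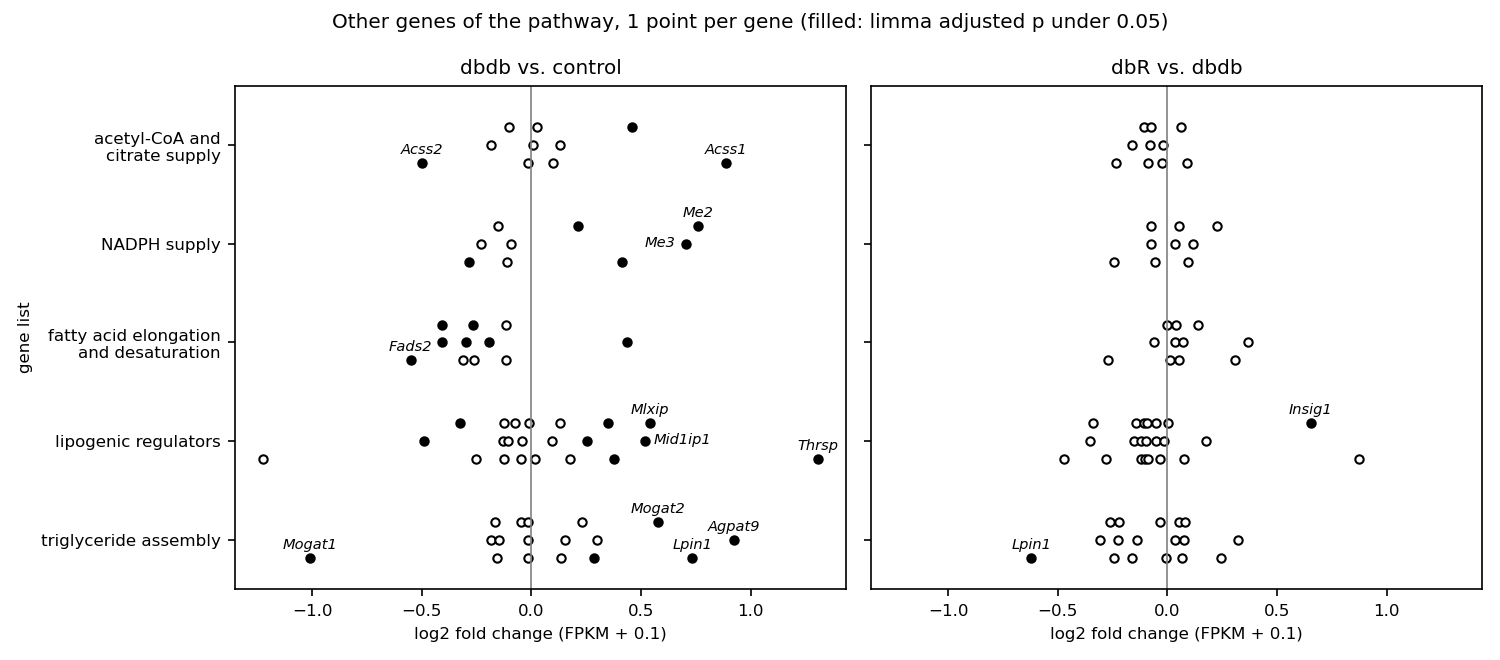
Log2 fold changes on the FPKM + 0.1 scale (horizontal axes) of the 69 tested genes of 5 lists (rows) in dbdb vs. control (left) and in dbR vs. dbdb (right), with 1 point per gene, filled where the adjusted p was under 0.05. Filled points lie on both sides of 0 in dbdb vs. control, and Insig1 and Lpin1 are the filled points in dbR vs. dbdb.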

How the data were processed

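Ribosomal RNA was removed and strand-specific libraries of renal cortex RNA were sequenced, 1 per mouse. The submitters' processing notes name TopHat2 2.0.9, Cufflinks 2.1.1 and the mouse build GRCm38.p2. The authors deposited FPKM per transcript and library, which Cufflinks computes by dividing reads among transcripts and scaling to transcript length and mapped fragments. FPKM holds no counts, so no count test was used, and depth was read only as the ratio of low values between libraries. lncRNA tables were not used here.

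FPKM was summed over the transcripts of each gene ID (50660 mRNA transcripts, 21950 genes). The 14537 genes with a mean of at least 0.1 FPKM over 9 libraries were fitted as log2(FPKM + 0.1) with limma 3.58.1 (R 4.3.3), in 1 model of the 3 groups with a variance trend. Its p-values are two-sided, adjusted by Benjamini-Hochberg over all genes in each comparison, and called under 0.05. On that scale a fold change understates the difference of low genes. No gene-level permutation of 3 against 3 libraries can reach that threshold. Sums per gene include transcripts whose division is uncertain. The fit was tested on simulated data. Groups came from the labels, and the mice were separate animals.

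The members and gene lists were chosen with earlier results of these data known. All members are named, and of the pathway and marker lists those called in dbdb vs. control or dbR vs. dbdb with a log2 fold change of at least 0.5 either way, up to 6 per list, plus genes that check the tissue. Most of the marker genes are named without values. Alternatives covered the pseudocount, the filter, scaling (2 of these settings added after seeing the data), libraries in the fit, the variance model, the transcript used, a replicate block and each library left out. Gene positions are from the GENCODE annotation of GRCm38, promoter sequences from RefSeq (GRCm38.p6). Python 3.11.15, numpy 2.4.6, pandas 2.3.3 and matplotlib 3.10.9 were used.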

Additional observations from a re-analysis of the deposited data

How the results depend on the processing

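Each comparison was repeated under 13 other settings, 2 of them (same sum with all genes kept, and mitochondrially encoded genes left out with no rescaling) chosen after seeing the data, and without each of the 9 libraries. Over the 10 members and 3 comparisons, 617 of the repeated values kept their direction and side of the threshold, 24 lost a call, 6 gained one and 13 turned in sign. Counts of genes and members called in dbdb vs. control and dbR vs. control stayed within 1.5 times the reported ones, at 2761 to 3830 and 2479 to 3569 genes and 5 to 7 members in each without 1 library. In dbR vs. dbdb the 108 genes became 17 with no filter, 166 with a mean of at least 1 FPKM, 51 with libraries scaled to the same sum and all genes kept, 203 with 75th percentile scaling, 234 with quantile normalization, 22 with 6 libraries in the fit, 18 with no variance trend, 49 with the most abundant transcript, and 2 to 141 without 1 library. The 1 member, Srebf1, became 0 with no filter, with libraries scaled to the same sum (mitochondrially encoded genes left out or kept), with 6 libraries, with no variance trend and with the most abundant transcript, and 0 to 1 without 1 library. Same-numbered libraries had low correlations of deviations (-0.175 to 0.0615 over 9 pairs), and differently numbered ones reached 0.168. With 3 libraries per group this cannot exclude that the numbers pair the mice. With the number as a replicate block 3345, 23 and 3030 genes and 6, 0 and 6 members were called.

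With mitochondrially encoded genes left out and libraries scaled to the same sum, the median of all genes moved to 0.149 in dbdb vs. control, where 78.3% of calls were then higher in place of 49.5%, to 0.0888 in dbR vs. control (70.5% in place of 51.1%, and 62.3% with 75th percentile scaling) and to -0.0632 in dbR vs. dbdb (48.6% in place of 75.9%). The common sum made the shift, since with all genes kept the medians were 0.149, 0.089 and -0.0637 (77.3%, 71.2% and 60.8% higher), and with mitochondrially encoded genes left out and no rescaling 49.5%, 50.9% and 75.7% were higher and no member's call changed. For dbR against dbdb, Me1 was -0.0073 with these genes left out and the common sum and -0.0081 with them kept, and Fasn -0.0055 and -0.0062. Also for dbR against dbdb, Insig1, Lpin1, Fabp4, Pdgfrb and Kdr no longer passed with the common sum and all genes kept (limma, adjusted p = 0.0504 to 0.0737). In the same comparison, without 1 library, Fasn lay between -0.026 (without dbR replicate 1) and 0.15 and Acly between -0.16 and 0.0086 (without dbdb replicate 2). With the most abundant transcript, Acly was -0.0074 for dbdb and -0.11 for dbR against control, and Acaca -0.026 for dbR against control. In dbR vs. control, without 1 library, Acaca lay between -0.052 (without control replicate 3) and 0.079 and was -0.028 without dbR replicate 1, and Acly lay between -0.064 (without control replicate 3) and 0.049 and was -0.013 without dbR replicate 2. All these turned values were far from the threshold. With the common sum, 4 members were higher and 2 lower in dbdb vs. control, since Elovl6 gained and Fasn lost its call. With no filter, Scd1 in dbdb vs. control had an adjusted p of 0.0593. Other causes were not tested. Precision is limited by 3 mice per group, and the values hold no read counts.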
